A study of Mus musculus with 11 samples.

Results

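MAP kinases are switched off by dedicated phosphatases, and the Ras-ERK route that feeds them is held back by Sprouty and Spred proteins. The data here describe 10 of these inhibitor genes among the 29307 genes counted in sorted liver sinusoidal endothelial cells (ECs): the dual-specificity phosphatases *Dusp1*, *Dusp3*, *Dusp4*, *Dusp5*, *Dusp6* and *Dusp16*, the Sprouty genes *Spry1*, *Spry2* and *Spry4*, and *Spred1*. They were chosen by gene symbol. All 10 had enough counts to be tested. The libraries came from 6 conventionally raised (CONV-R) and 5 germ-free (GF) male C57BL/6J mice aged 10 to 12 weeks, 1 library per mouse. CONV-R mice were specific-pathogen-free animals from the same colonies as the GF mice, all groups ate the same autoclaved diet, and no agent or allele separated the groups. The libraries held 7242717 to 16164588 counts. Cells were enriched on CD146 beads and then sorted for CD31+, CD105+ and CD146+, and their RNA was amplified before sequencing. The paper reports fewer sorted cells and less RNA from GF than from CONV-R livers, and a low viability of the sorted cells. The yields go with the groups, so any effect of them on the values cannot be told apart from colonization. Of the libraries, GF replicate 6 stood apart by its Kupffer cell markers and CONV-R replicate 3 on the second principal component, and the results without both are given at the end. GF replicate 2 had 22674 genes detected, against 15456 to 18495 in the other 10 libraries, and without it *Dusp1*, *Dusp4* and *Spry4* kept their calls, with Log2FC values of 0.97, 1.25 and -0.91. The comparison asks which of these inhibitors differ in hepatic ECs when the mice carry no microbiota.

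A growth factor receptor activates Ras, which passes the signal through RAF and MEK to the kinases ERK1 and ERK2, while cell stress and cytokines feed the parallel kinases JNK and p38. MAP kinase phosphatases remove the activating phosphates from the threonine and tyrosine of these kinases, and several of them are themselves transcribed in response to the signal, so that they act as negative feedback. Sprouty and Spred proteins act further upstream, between the receptor and RAF. In ECs, Sprouty proteins are known as brakes on signalling by vascular endothelial and fibroblast growth factors.

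The 250 bases before the start site were read from RefSeq promoter windows (GRCm38.p6) for *Dusp1*, which rose in GF ECs, and for the relatives *Dusp5*, *Dusp6* and *Spry2*, none of which passed the test. Each is written 5′ to 3′ on the gene's strand, with capitals for the cAMP response element core TGACG on either strand and for the CArG box, the site of serum response factor. The windows are chr17:26508473-26508722 (minus strand), chr19:53528895-53529144 (plus strand), chr10:99262981-99263230 (plus strand) and chr14:105896820-105897069 (minus strand).
Dusp1: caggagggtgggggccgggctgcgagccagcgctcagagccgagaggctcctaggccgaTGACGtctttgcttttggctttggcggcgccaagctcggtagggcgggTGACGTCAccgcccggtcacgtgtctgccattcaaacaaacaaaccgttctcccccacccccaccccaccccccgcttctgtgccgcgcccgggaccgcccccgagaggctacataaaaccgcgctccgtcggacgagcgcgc
Dusp5: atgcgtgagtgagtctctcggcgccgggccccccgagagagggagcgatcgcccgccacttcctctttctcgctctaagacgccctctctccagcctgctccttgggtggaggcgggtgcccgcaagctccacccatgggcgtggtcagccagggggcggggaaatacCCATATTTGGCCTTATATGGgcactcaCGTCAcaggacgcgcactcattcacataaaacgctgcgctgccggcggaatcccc
Dusp6: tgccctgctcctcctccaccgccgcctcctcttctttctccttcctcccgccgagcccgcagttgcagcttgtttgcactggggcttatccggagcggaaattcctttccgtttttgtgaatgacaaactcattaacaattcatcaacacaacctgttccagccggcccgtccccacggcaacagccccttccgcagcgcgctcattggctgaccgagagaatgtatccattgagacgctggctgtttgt
Spry2: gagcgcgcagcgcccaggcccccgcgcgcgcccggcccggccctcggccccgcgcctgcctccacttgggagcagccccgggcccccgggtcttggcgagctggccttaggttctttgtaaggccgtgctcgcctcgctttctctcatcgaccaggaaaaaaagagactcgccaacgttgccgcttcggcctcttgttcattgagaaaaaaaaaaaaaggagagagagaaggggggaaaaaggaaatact

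The *Dusp1* window holds the full cAMP response element TGACGTCA from 143 to 136 bases before the start site, and a further core from 191 to 187 bases before it. The full element is its own reverse complement and so contains the core on both strands. It stood in 1.55% of the 32851 mouse promoter windows searched and in 1 of the 8 windows matched to these genes, and the core in 17.8% of all windows and in 3 of the 8, those of *Dusp1*, *Dusp5* and *Dusp16*. *Dusp5* had a pair of adjoining CArG boxes between 82 and 63 bases before its start, a motif found in 1.47% of all windows and in no other of the 8. None of the 8 windows held an AP-1 site (TGANTCA, 6.75% of all windows), an ETS site (CCGGAAGT, 2.88%) or the palindromic glucocorticoid response element (0.387%), each searched on both strands. The 8 windows leave out *Dusp4*, which had no matched window, and *Spry4*, as windows on its chromosome 18 were not searched.

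In GF relative to CONV-R ECs, *Dusp1* and *Dusp4* rose, *Spry4* fell, and the other 7 genes did not pass the test. *Dusp1* was 1.89-fold and *Dusp4* 2.41-fold higher, and *Spry4* was 1.88-fold lower. These 3 of 10 genes had a Benjamini-Hochberg corrected p (p.adjust) under 0.05 in the quasi-likelihood test of edgeR, in which 7.48% of the 12905 tested genes were called, 4.80% higher and 2.67% lower in GF ECs. The same 3 were also those whose values did not overlap between the groups, which held for 5.59% of all tested genes. The median Log2FC of the 10 genes was 0.18, and that of all tested genes was -0.01. The p values here measure the spread between mice. In bulk RNA, fewer cells of a type and less RNA per cell cannot be told apart.

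**Figure D1:**
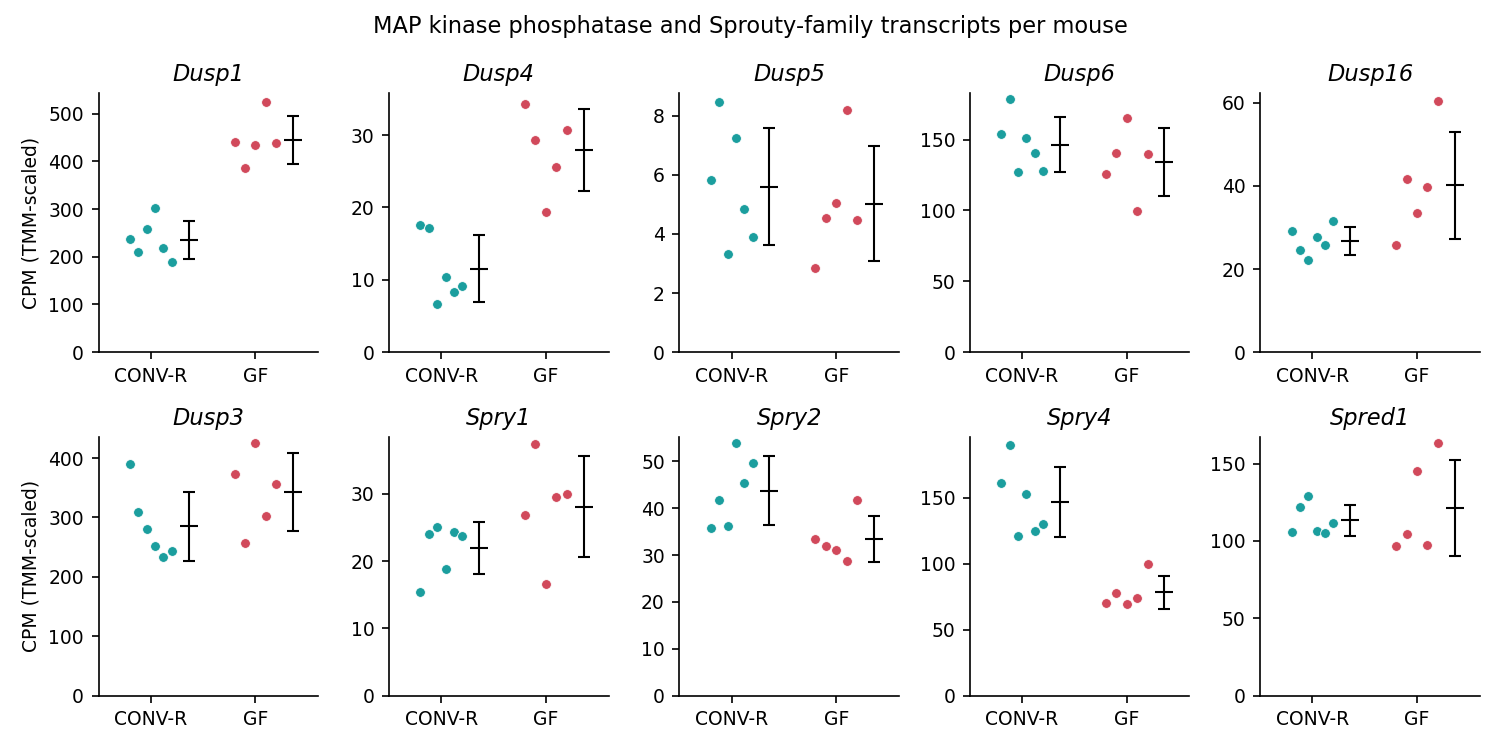
Each panel plots 1 gene, with CPM (counts scaled to a common library total by the trimmed mean of M values) on a linear axis from 0; points are single mice (6 CONV-R, 5 GF), and the black bar gives the mean and SD of the group. All GF points lie above all CONV-R points for *Dusp1* and *Dusp4* and below them for *Spry4*, while the groups overlap in the other 7 panels.

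*Dusp1* encodes MKP-1, a nuclear phosphatase that acts on p38, JNK and ERK and is an immediate early gene. It lies at chr17:26505590-26562128 on the minus strand of GRCm38, with 6 exon blocks in GENCODE M21. This span includes an isoform that starts further upstream, and the promoter window printed above precedes the RefSeq start site, which lies inside it. In CONV-R ECs its level ran from 190 to 302 CPM, median 228. In GF mice 1, 2, 4, 5 and 6 it was 440, 387, 435, 526 and 439 CPM. The lowest GF mouse thus stood above the highest CONV-R mouse. Group means were 445 ± 50.1 CPM (SD, n = 5) and 236 ± 39.8 CPM (SD, n = 6), for a Log2FC of 0.92 (standard error 0.12, edgeR p.adjust = 0.00019).

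*Dusp4* encodes MKP-2, a further inducible nuclear phosphatase, closely related to MKP-1. It lies at chr8:34807297-34819894 on the plus strand, in 4 exon blocks. CONV-R values ran from 6.63 to 17.5 CPM around a median of 9.80. The 5 GF values, in the same order of mice, were 34.4, 29.4, 19.4, 25.6 and 30.7 CPM. CONV-R replicates 1 and 2, with 17.5 and 17.1 CPM, stood closest to the GF range, and the other 4 CONV-R mice had at most 10.4 CPM. The Log2FC was 1.27 (standard error 0.24, edgeR p.adjust = 0.00416), and the 95% interval of 0.75 to 1.78 was wider than the one of 0.66 to 1.18 for *Dusp1*. With the summed Kupffer cell markers of each library as a covariate, the Log2FC was 1.03 and *Dusp4* lost its call (edgeR p.adjust = 0.248). That marker sum itself differed between the groups, so the fit cannot fully separate it from colonization. The *Dusp4* values rest on fewer counts than those of *Dusp1*, 882 in all CONV-R and 1457 in all GF libraries.

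*Dusp5*, the third nuclear and inducible phosphatase and one specific for ERK, was the least expressed of the 10 genes. Its gene lies at chr19:53529109-53542431 on the plus strand. CONV-R mice had 3.31 to 8.47 CPM, median 5.33, and GF mice had 2.86, 4.54, 5.05, 8.20 and 4.48 CPM. The ranges overlapped over most of their width. The Log2FC was -0.17 with an interval from -0.84 to 0.49 (edgeR p.adjust = 0.794), on 426 counts in all CONV-R and 239 in all GF libraries. The coefficient of variation between mice was 35.5% in CONV-R and 38.9% in GF ECs.

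*Dusp6* encodes MKP-3, the cytoplasmic phosphatase that is specific for ERK and a widely used readout of ERK activity. It lies at chr10:99263231-99267489 on the plus strand. CONV-R mice had 127 to 179 CPM, median 146, and GF mice had 126, 140, 165, 99.4 and 140 CPM. Of the GF mice, 2 were below all CONV-R mice and 0 were above them. The Log2FC was -0.13 with an interval from -0.40 to 0.15 (edgeR p.adjust = 0.611).

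*Dusp16*, or MKP-7, acts mainly on JNK and p38. It lies at chr6:134715468-134792625 on the minus strand, in 10 exon blocks. The CONV-R range was 22.2 to 31.6 CPM, median 26.8, and GF mice 1, 2, 4, 5 and 6 had 25.9, 41.6, 33.4, 39.7 and 60.4 CPM. The other 4 GF mice stood above every CONV-R mouse, and GF replicate 1 fell inside the CONV-R range. The Log2FC of 0.58 missed the threshold (standard error 0.18, edgeR p.adjust = 0.063). DESeq2 gave an adjusted p of 0.0345, and edgeR without GF replicate 1 one of 0.021 with a Log2FC of 0.70, while without GF replicate 6 the Log2FC was 0.38 (edgeR p.adjust = 0.196).

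*Dusp3*, or VHR, is a small atypical phosphatase without the kinase-binding domain of the MKPs, and is not known as a feedback gene. It lies at chr11:101971143-101987013 on the minus strand. CONV-R mice had 234 to 391 CPM, median 266, and GF mice had 373, 258, 426, 302 and 356 CPM. Only GF replicate 4 exceeded the highest CONV-R mouse. The Log2FC was 0.27 with an interval from -0.04 to 0.58 (edgeR p.adjust = 0.296).

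*Spry4*, whose product inhibits receptor signalling to Ras and RAF, was the 1 gene of the 10 that fell. It lies at chr18:38586247-38601415 on the minus strand, in 2 exon blocks. CONV-R mice had 121 to 190 CPM, median 142, and GF mice 1, 2, 4, 5 and 6 had 69.9, 77.8, 69.8, 73.6 and 100 CPM. GF replicate 6 stood apart from the other 4 GF mice, towards the CONV-R range, and still below all 6 CONV-R mice. Group means were 78.2 ± 12.6 CPM (SD, n = 5) and 147 ± 26.5 CPM (SD, n = 6), for a Log2FC of -0.91 (standard error 0.14, edgeR p.adjust = 0.000734).

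*Spry2*, the Sprouty protein best known as a feedback inhibitor in growth factor signalling, lies at chr14:105891947-105896819 on the minus strand. CONV-R mice had 35.7 to 53.9 CPM, median 43.6, and GF mice had 33.5, 32.0, 31.0, 28.8 and 41.8 CPM. As with *Spry4*, GF replicate 6 was the highest GF mouse, and the other 4 were below every CONV-R mouse. The Log2FC was -0.39 with an interval from -0.70 to -0.08 before adjustment (edgeR p.adjust = 0.113).

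*Spry1*, at chr3:37639947-37644598 on the plus strand, had 15.4 to 25.0 CPM in CONV-R mice, median 23.9. In GF mice it had 26.9, 37.4, 16.7, 29.6 and 29.98 CPM, which put 4 of the 5 above every CONV-R mouse and GF replicate 4 near the bottom of the CONV-R range. The Log2FC was 0.36 with an interval from -0.04 to 0.76 (edgeR p.adjust = 0.276). The 3 Sprouty genes thus did not share a direction, with Log2FC values of 0.36, -0.39 and -0.91, of which only the last passed the test.

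*Spred1* encodes a membrane protein that recruits neurofibromin, a Ras GTPase activator, to Ras. It lies at chr2:117121374-117182279 on the plus strand, in 7 exon blocks. CONV-R mice had 105 to 129 CPM, median 109, the narrowest spread of the 10 genes (coefficient of variation 8.76%). GF mice had 96.7, 105, 146, 97.3 and 164 CPM, with 3 below and 2 above all CONV-R mice. The coefficient of variation was 25.5% in GF ECs, and the Log2FC was 0.10 (edgeR p.adjust = 0.732). Without GF replicate 6 it was -0.03.

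The libraries were made from double-stranded amplified cDNA with a DNA kit, which keeps no strand. Their counts therefore cannot tell a gene from an antisense partner. An annotated gene on the other strand shares 24.4% of the exon bases of *Spry1*, 22.1% for *Dusp5*, 12.9% for *Dusp3* and 0.332% for *Dusp1*. The values of *Spry1*, *Dusp5* and *Dusp3* are therefore uncertain, and a share of exon bases does not give the share of reads affected. The other 6 genes share no exon bases with another annotated gene.

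**Figure D2:**
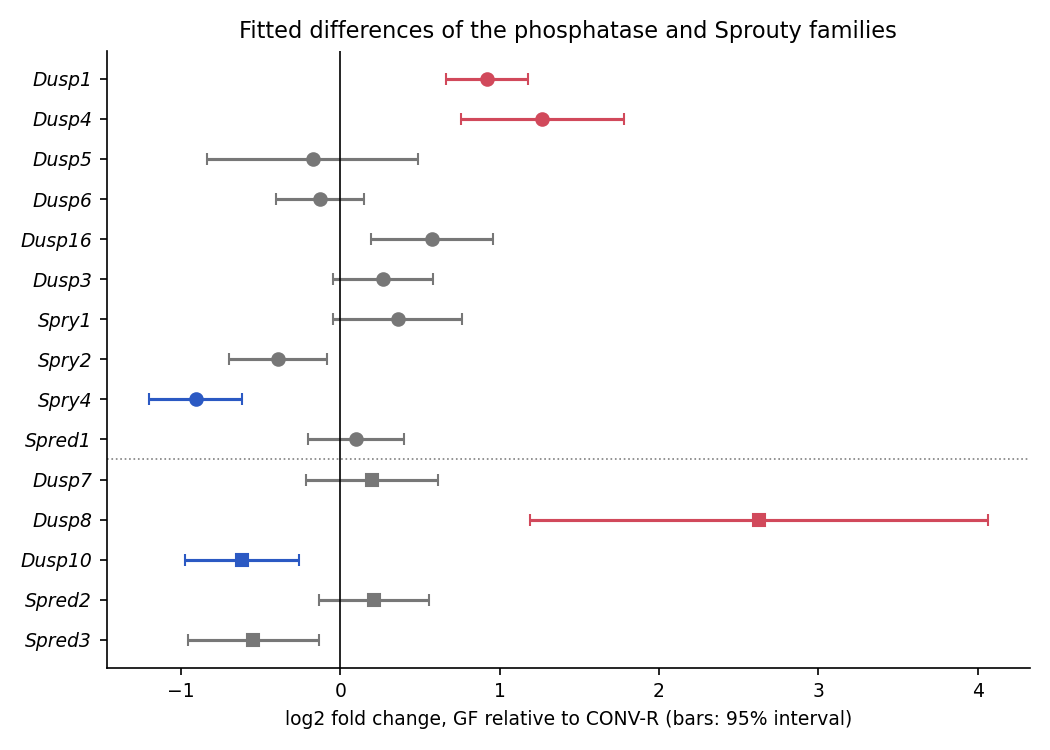
The horizontal axis gives the Log2FC of GF relative to CONV-R ECs with its 95% interval; circles are the 10 genes, squares below the dotted line are the tested relatives, red marks genes called higher, blue genes called lower and grey genes not called. *Dusp1*, *Dusp4* and *Dusp8* stand to the right of 0 and *Spry4* and *Dusp10* to the left, and the interval of *Dusp8* is the widest.

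Per kilobase of annotated exon, the order of levels can be compared between genes. In CONV-R ECs, *Dusp1* (71.2 ± 12 CPM per kb, SD, n = 6) and *Dusp3* (60.9 ± 12.5) led, and *Dusp1* was above *Dusp3* in 4 of 6 mice, so this pair did not differ beyond its spread. *Dusp6* followed with 46.8 ± 6.19 CPM per kb, then *Spry4* with 30.9 ± 5.56, *Spry2* with 21.0 ± 3.51 and *Spred1* with 16.7 ± 1.46. *Spry1*, *Dusp4*, *Dusp16* and *Dusp5* had means from 7.54 down to 2.26 CPM per kb, and *Dusp4* was above *Dusp16* in 3 of 6 mice. In GF ECs the order changed in its middle. *Dusp1* then stood at 135 ± 15.1 CPM per kb (SD, n = 5), above *Dusp3* (73.2 ± 13.9) in 5 of 5 mice with no overlap of the ranges. *Spry4*, at 16.5 ± 2.66 CPM per kb, came to lie beside *Spred1* (17.9 ± 4.56) and *Spry2* (16 ± 2.38), with *Spry4* above *Spry2* in 3 of 5 mice. *Dusp4* reached 10.2 ± 2.07 CPM per kb, beside *Spry1* at 9.67 ± 2.58. The lengths are unions over all annotated isoforms, so these levels are approximate.

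**Figure D3:**
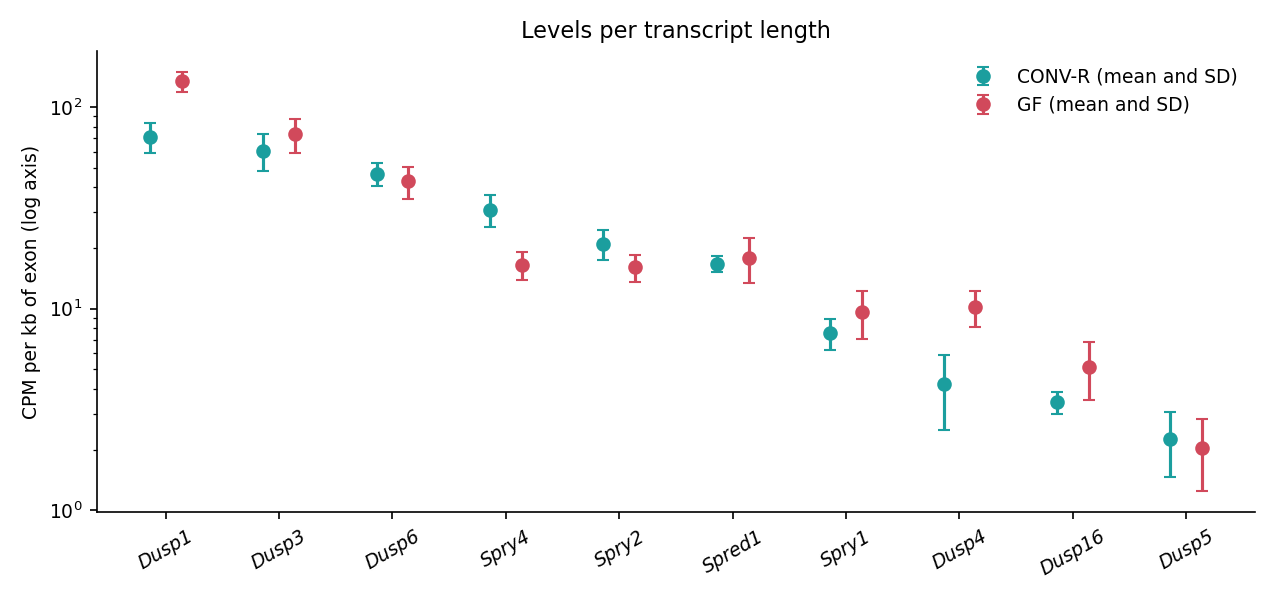
The vertical log axis gives CPM per kb of annotated exon, as the mean and SD of 6 CONV-R mice (teal) and 5 GF mice (red), with genes ordered by their CONV-R mean. *Dusp1* has the highest mean in both groups, though it was above *Dusp3* in only 4 of 6 CONV-R mice. *Spry4* drops from 30.9 to 16.5 CPM per kb while *Dusp4* climbs from 4.21 to 10.2.

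Ratios of 2 genes within a library do not depend on how libraries were scaled to each other. *Dusp1* had 1.11 to 2.13 counts for each count of *Spry4* in CONV-R libraries and 4.38 to 7.13 in GF libraries, a 3.55-fold difference between the geometric means. The ratio of *Dusp4* to *Spry4* was 0.0552 to 0.109 in CONV-R and 0.279 to 0.492 in GF libraries, 4.73-fold apart. *Dusp6* and *Spry4* were counted almost equally in every CONV-R library, at ratios from 0.941 to 1.12, and in GF libraries the ratio was 1.35 to 2.36. *Spry2* against *Spry4* had ratios of 0.220 to 0.381 in CONV-R and 0.392 to 0.479 in GF libraries. So *Spry4* was lower in GF libraries relative to both of these genes too. *Dusp1* against *Dusp6* was 1.18 to 2.03 in CONV-R and 2.63 to 5.29 in GF libraries, which do not overlap. The ratio of *Dusp4* to *Dusp1* was 0.0260 to 0.0818 and 0.0448 to 0.0781, which do. Of the 45 pairs among the 10 genes, 13 (28.9%) had ratios that did not overlap between the groups, against 5.50% of the 83263060 pairs among all tested genes. All 13 pairs include at least 1 of the 3 called genes, 8 of them *Spry4*, so this count restates the 3 calls on a scale that does not depend on library scaling.

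**Figure D4:**
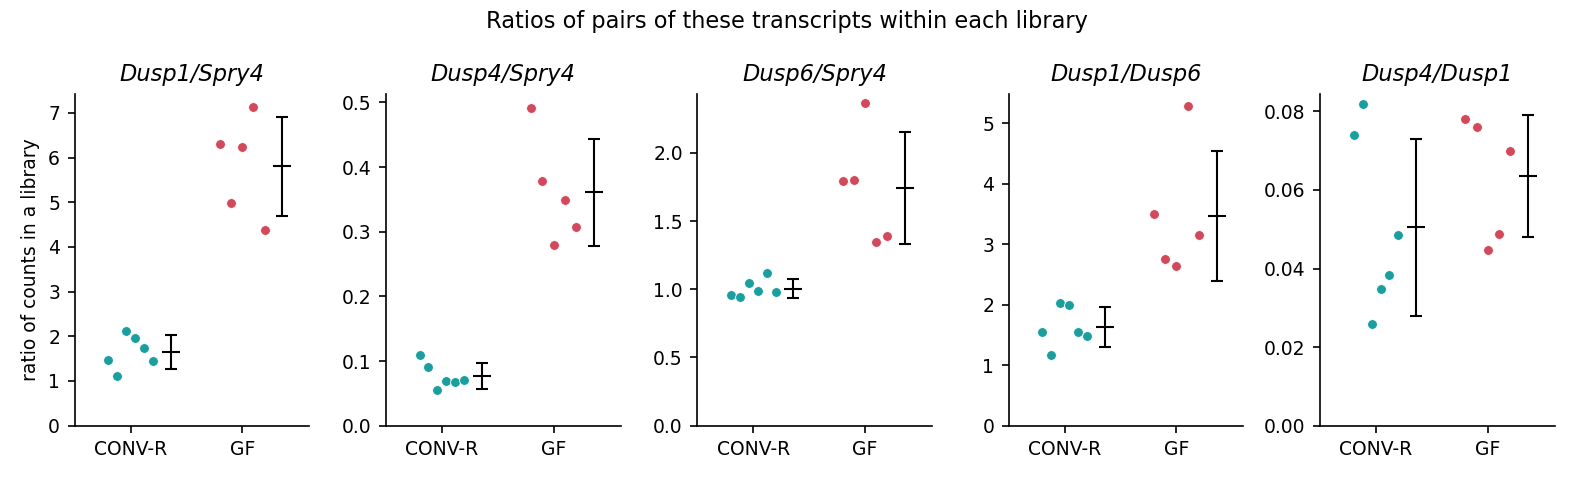
Each panel gives the ratio of the counts of 2 genes (after adding 0.5 to each) within a library, on a linear axis from 0; points are single mice, and the black bar is the arithmetic mean and SD. The GF points clear the CONV-R points in the first 4 panels, and the ratio of *Dusp4* to *Dusp1* overlaps.

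Their closest relatives were 5 further phosphatases of the MKP class and 3 of the Sprouty and Spred families, of which 5 could be tested by edgeR, 1 rose and 1 fell, beside 4.80% and 2.67% of all tested genes. *Dusp10* (MKP-5), which acts on JNK and p38, fell, with 60.3 to 75.4 CPM in CONV-R mice (median 64.0) and 56.1, 52.0, 45.5, 25.6 and 33.6 CPM in GF mice. The groups did not overlap, and the Log2FC was -0.62 (standard error 0.17, edgeR p.adjust = 0.0348). *Dusp8*, also a JNK and p38 phosphatase, rose from 0 to 1.55 CPM in CONV-R mice to 1.23, 4.64, 2.00, 2.78 and 10.04 CPM in GF mice. *Dusp8* had 20, 4, 0, 2, 15 and 8 counts in the CONV-R libraries, so it passed edgeR's filter only through the GF mice. It was not tested where every library had to hold at least 10 counts. Its Log2FC of 2.63 (standard error 0.68, edgeR p.adjust = 0.0257) rests on 49 and 183 counts per group, and without GF replicate 6 it was 2.01 with an adjusted p of 0.102. *Dusp10* likewise lost its call without GF replicate 6 (edgeR p.adjust = 0.096). Both calls were also lost when certain other single mice were left out, whereas those of *Dusp1*, *Dusp4* and *Spry4* held with any 1 mouse left out. *Dusp7*, *Spred2* and *Spred3* had Log2FC values of 0.20, 0.21 and -0.55 (edgeR p.adjust 0.597, 0.479 and 0.099). *Dusp2*, *Dusp9* and *Spry3* had 26, 2 and 103 counts in all 11 libraries together, too few for edgeR's filter. DESeq2 called *Spry3* higher in GF ECs (Log2FC 1.93, standard error 0.68, DESeq2 p.adjust = 0.0472), and edgeR without a filter did not call it.

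The wider pathway was described by further lists that were read as counts, beside the 4.80% of all tested genes called higher and the 2.67% called lower. Of the 7 tested atypical dual-specificity phosphatases, 0 passed edgeR's quasi-likelihood test or DESeq2, and 1 higher and 1 lower gene had an unadjusted p under 0.05 in edgeR. In the Ras-ERK cascade with its adaptors and the kinases that ERK activates, 1 of 27 tested genes rose, at a median Log2FC of 0.07. That gene was *Rps6ka3*, an ERK-activated kinase, with a Log2FC of 0.54 (edgeR p.adjust = 0.0236). DESeq2 also called *Shc1* higher, which had an edgeR p.adjust of 0.0753. Of the 24 tested JNK and p38 cascade genes, 4 rose and 1 fell. *Map3k6*, a stress-activated kinase at the top of that cascade, rose from 5.98 to 9.05 CPM in CONV-R mice to 73.1, 67.8, 23.5, 58.2 and 34.3 CPM in GF mice (Log2FC 2.85, edgeR p.adjust = 3.55e-06). *Mapkapk2*, a substrate kinase of p38, and *Map3k5* (ASK1), an upstream stress kinase, rose as well, with Log2FC values of 0.95 and 1.19, and *Map2k6*, an activator of p38, fell with -0.63.

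Of the 14 tested receptor tyrosine kinases, 4 rose in edgeR. DESeq2 called 6 higher, those 4 with *Met* and *Erbb3*, which did not pass edgeR's filter. *Fgfr3* and *Fgfr1*, fibroblast growth factor receptors, had Log2FC values of 1.20 and 0.83, the insulin receptor gene *Insr* one of 1.27 and *Axl*, the receptor of Gas6, one of 1.04. Among 16 other genes that restrain Ras or its receptors, 1 rose in edgeR, *Dab2ip*, a Ras GTPase activator, with a Log2FC of 0.55. DESeq2 called 1 higher and 2 lower, the latter being the Ras GTPase activators *Rasal1* (Log2FC -1.62, DESeq2 p.adjust = 0.0246) and *Rasa4* (Log2FC -0.59, DESeq2 p.adjust = 0.0365), which had an edgeR p.adjust of 0.0586 and 0.0698. Of the 14 tested genes of the growth factor response, 2 rose in edgeR, *Emp1* with 2.26 and *Fosl2*, an AP-1 subunit, with 0.61. DESeq2 also called *Plaur* higher, which had an edgeR p.adjust of 0.0586. Over all 7 lists, 15 of the 107 tested genes on these lists (14%) were called, 13 higher and 2 lower, at a median Log2FC of 0.12, where 7.48% of all tested genes were called. This count is less firm than that of the 10 genes: it was 7 without GF replicate 6, 9 without CONV-R replicate 4 and 9 without CONV-R replicate 5, and 22 under DESeq2, 18 higher and 4 lower. With the Kupffer marker sum as a covariate it was 2, *Fgfr1* and *Map3k6*. *Fgfr3*, *Insr*, *Axl*, *Mapkapk2* and *Emp1* lost their calls there, with Log2FC values of 1.08, 1.06, 0.39, 0.72 and 1.39. The marker sum differed between the groups, so that fit cannot fully separate it from colonization. *Dab2ip*, *Map3k5*, *Map2k6*, *Fosl2* and *Rps6ka3* lost their calls in 5 to 11 of 21 alternative settings each, while *Map3k6* and *Fgfr1* kept theirs in all 21.

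**Figure D5:**
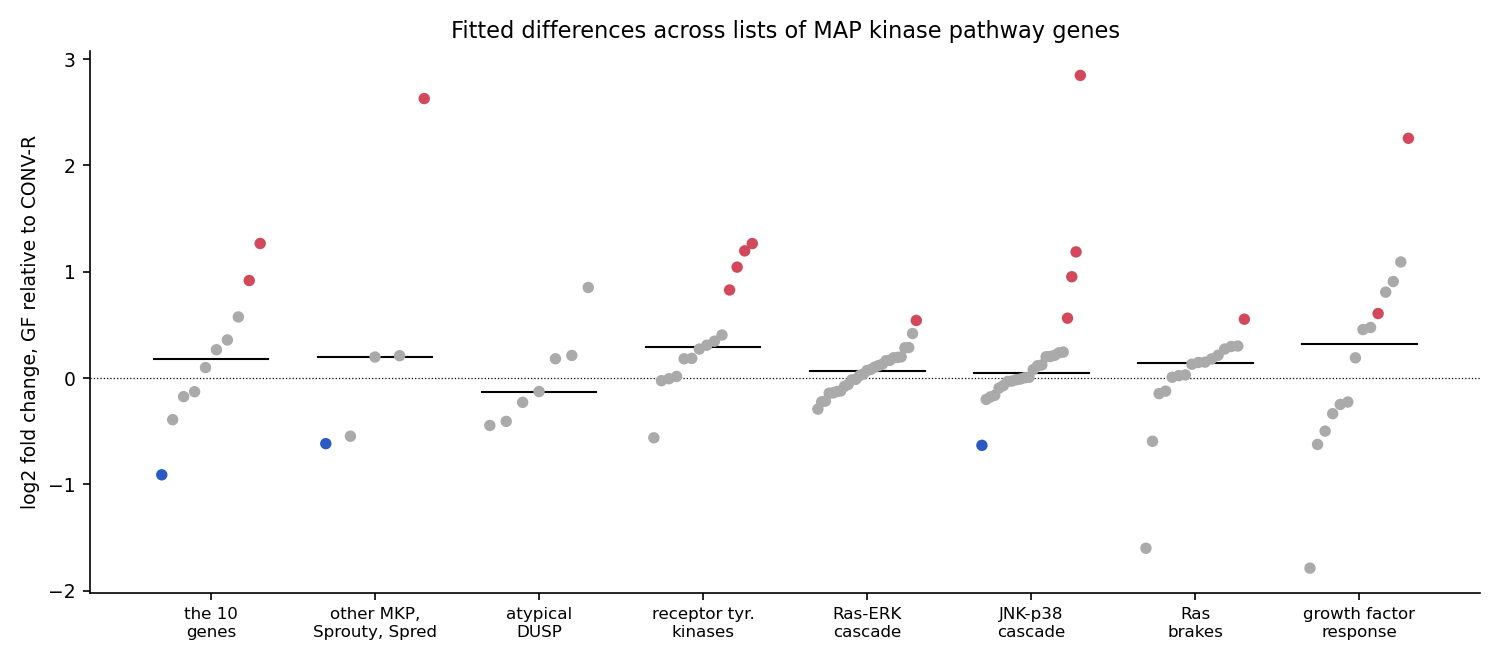
The vertical axis gives the Log2FC of GF relative to CONV-R ECs; each point is a tested gene, sorted within its list (the 10 genes first, then the 7 pathway lists), in red where called higher, blue where called lower and grey where not called, and the black line is the median of the list. The Ras-ERK cascade list lies close to 0, with 1 of 27 points called.

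As a check of the sort, the 10 sinusoidal EC markers summed to 26904 to 32750 CPM in CONV-R and 25808 to 35539 CPM in GF mice. By gene, 0 of the 10 were called by edgeR or DESeq2, and 5 had an unadjusted p under 0.05 in edgeR, all 5 higher in GF ECs. Of the genes for the sorting antigens, *Pecam1* had a Log2FC of 0.46 (edgeR p.adjust = 0.112), *Eng* one of 0.26 (0.336) and *Mcam* one of 0.37 (0.0764). Hepatocyte, lymphocyte and stellate cell markers had sums that overlapped between the groups (exact two-sided permutation, p = 0.47, 0.935 and 0.788, unadjusted). The 10 Kupffer cell markers did differ, with sums of 85.1 to 224 CPM in CONV-R and 193 to 912 CPM in GF mice (exact two-sided permutation, p = 0.0108, unadjusted), and 6 of 10 rose, among them *Clec4f*, *Vsig4* and *Timd4*. The ratio of the group means was 2.86, and 1.90 without GF replicate 6, which held the 912 CPM. None of the 10 was at 0 in all libraries. By mouse, the marker sums were 224, 85.1, 90.9, 90.6, 129.5 and 196 CPM in CONV-R replicates 1 to 6 and 280, 354, 193, 209 and 912 CPM in GF replicates 1, 2, 4, 5 and 6. Among the GF mice, replicate 6 also had the highest *Dusp16*, *Dusp8*, *Spry2*, *Spry4* and *Spred1*, and with the log2 marker sum as a covariate the Log2FC of *Dusp16* was 0.11 (edgeR p.adjust = 0.927). With the same covariate, added after seeing the data, the Log2FC was 1.06 for *Dusp1* (edgeR p.adjust = 0.00589) and -1.08 for *Spry4* (edgeR p.adjust = 0.0129), while *Dusp4* lost its call as given above. All genes then had 98 calls in place of 965. The marker sums of the groups overlap only in part, so the covariate and colonization are partly confounded in this fit. How much of the loss of calls comes from that was not tested. Without GF replicate 6 and without CONV-R replicate 3, the library farthest out on the second principal component, *Dusp1*, *Dusp4* and *Spry4* kept their calls, with Log2FC values of 0.95, 1.12 and -1.06, and *Spry2* passed as well (Log2FC -0.53, edgeR p.adjust = 0.0378).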

How the data were processed

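RNA was measured in sorted hepatic sinusoidal ECs of 6 CONV-R and 5 GF mice, 1 library each, so the replicates are separate mice. The authors amplified the RNA, trimmed the reads with Trim Galore, mapped them to GRCm38 with STAR and counted them per gene with featureCounts, and they left out 1 GF library with few mapped reads. The deposited values were raw counts and a table of normalized values on a log2 scale. Strand setting and annotation release are not given in the sources used here.

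The test was edgeR 4.0.16 (quasi-likelihood, TMM scaling, filterByExpr) under R 4.3.3 on the raw counts, GF against CONV-R, with Benjamini-Hochberg adjustment over 12905 genes and a threshold of 0.05. The study itself tested with DESeq2, which is an alternative here (version 1.42.0). Other alternatives were DESeq2 size factors, limma voom (limma 3.58.1), other filters, robust dispersion, random thinning of every library to the smallest total count, a replicate block, each library left out, and limma on the authors' normalized log2 values. A Kupffer marker covariate and leaving out CONV-R replicate 3 with GF replicate 6 were added after seeing the data. Single sums were compared by two-sided exact permutation tests over 462 splits, whose smallest p is 0.00216. CPM used TMM-scaled totals, and ratios added 0.5 to each count. Reads carry no molecular identifiers, so counts include copies made by amplification.

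Gene positions came from GENCODE M21 (29081 of 29307 identifiers matched) and promoters from RefSeq, with chromosome 18 left out (8 of 10 genes matched). The genes named are the 10 inhibitors, their listed relatives, up to 4 genes per pathway list with the smallest adjusted p under 0.05, and the 3 sorting markers. The 3 Kupffer markers, *Rasal1*, *Rasa4*, *Met*, *Erbb3*, *Shc1* and *Plaur* were named outside that rule, after their values were seen. The 10 genes and all lists were chosen with earlier results of these data known, and the study had itself singled out *Dusp1* and *Map3k6* from these libraries, so the counts over them are no independent evidence. The replicate numbers came from different mice: deviations of same-numbered libraries correlated at -0.0144 to 0.201, so the numbers were not taken to pair them. Scripts were tested on simulated data.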

Additional observations from a re-analysis of the deposited data

Results flagged for a closer look

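Of the 70 sets of values in 1 group that were looked at, 4 held a sample farther from its neighbours than Dixon's 95% limit allows, where chance gives about 1 in 20. *Spry4* in GF ECs had a gap of 0.737 of the range, with GF replicate 6 at 100.1 CPM and the next mouse at 77.8 CPM. Without that mouse the Log2FC of *Spry4* was -1.01 and its adjusted p 0.000593 in edgeR's quasi-likelihood test. The same mouse stood apart for *Axl* (gap 0.714, 69.9 against 40.3 CPM) and for the summed Kupffer cell markers (gap 0.775, 912 against 354 CPM). *Map2k6* in CONV-R ECs had a gap of 0.779, with CONV-R replicate 3 at 14.2 CPM and the next mouse at 22.5 CPM.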

How the results depend on the processing

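*Dusp1* and *Spry4* kept their direction and their call in all 22 alternatives, and *Dusp4* in 21, the exception being the Kupffer marker covariate. With 1 library left out, the Log2FC ran from 0.85 to 1.00 for *Dusp1*, 1.15 to 1.42 for *Dusp4* and -1.01 to -0.83 for *Spry4*, and on the authors' normalized values limma gave 0.79, 1.07 and -0.73. The count of called genes among the 10 was 3 to 4 with 1 library left out, 4 under DESeq2 (with *Dusp16*) and 2 with the covariate. The replicate block gave 3, the same genes. The block took the call from *Map3k5* (adjusted p 0.0559) and gave one to *Mcam* (adjusted p 0.0155), and changed no other call among the 10 genes, their relatives and the other pathway and sorting genes named by rule. With 1 library left out, the pathway lists had 7 to 19 calls and all genes 622 to 1260. Leaving out CONV-R replicate 3 and GF replicate 6 together gave 8 pathway calls, and the covariate gave 2, with 98 over all genes. DESeq2 called 22 pathway genes, 15 of them shared, and 1527 genes in place of 965, 956 of them shared, and tested more genes. The Log2FC of *Spred1* ran from -0.030 to 0.17 with 1 library left out, negative only without GF replicate 6, and the sign turned with the covariate for *Spred1* (-0.038), *Dusp5* (0.16) and *Dusp7* (-0.031), none of which passed the test in either fit. The cause of these changes was not tested.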
